A study of Mus musculus with 9 samples.

Results

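The slow and oxidative fiber-type genes are 10 genes that mark slow or oxidative muscle fibers: Myh7, Myh2, Myh1, Tnnt1, Tnni1, Tnnc1, Myl2, Myl3, Myh7b and Myoz2. They were taken by name from the 30120 genes that have a transcript cluster (the array's unit for 1 transcribed locus) with a single gene symbol, all 10 were found, and each had 1 such cluster or was given by its brightest one. RNA of the quadriceps was measured on 1 Clariom D array per mouse in 9 mice of both sexes, 8 weeks old. Every mouse was MR flox/flox;mdx on a mixed C57BL6/C57BL10 strain, so that all of them lacked dystrophin and carried loxP sites in both copies of the gene for the mineralocorticoid receptor (MR). Cre-/mdx (3 mice) had no Cre, LysM-MRcko/mdx (3 mice) carried 1 copy of Cre under lysozyme M control, which acts in myeloid cells, and MCK-MRcko/mdx (3 mice) carried 1 copy of Cre under the muscle creatine kinase promoter, which acts in myofibers. Replicate 2 of Cre-/mdx, replicate 3 of LysM-MRcko/mdx and replicates 1 and 3 of MCK-MRcko/mdx were female, and the other 5 mice were male. The values are log2 signals, in which 1 unit is a 2-fold difference, and they were not ranked between genes, since probes differ in brightness.

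Skeletal muscle fibers are sorted by the myosin heavy chain they contain. Slow type I fibers use Myh7, oxidative fast type IIa fibers use Myh2, intermediate type IIx fibers use Myh1 and glycolytic type IIb fibers use Myh4. Slow fibers also have their own troponins, regulatory proteins of the thin filament, and their own myosin light chains, and several of these proteins are shared with the heart or with developing muscle. Mouse quadriceps is mostly a fast muscle, with few slow fibers that lie mainly in its deep part, and in mdx muscle fibers degenerate and are rebuilt from myoblasts, which pass through embryonic and neonatal sarcomere genes on the way.

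On every array the highest value was 19.93, and array medians lay between 4.70 and 4.78. Myofiber markers averaged between 16.87 and 17.16 on the arrays. Among them Acta1 had 19.93 on all 9 arrays, Ckm 19.43 on 6 and Des 16.97 on 6, so this mean was not read as equal myofiber content. Labelled sex matched Xist and 3 Y-linked genes on 9 of 9 arrays. Replicate 2 of Cre-/mdx stood apart from the other 8 mice: its mean over 15 oxidative fuel genes was 14.56, against 12.97 to 13.43 elsewhere, and its mean over 4 neutrophil markers was 9.18, against 5.56 to 7.99. Macrophage markers were higher in both knockouts than in the controls: their mean over 12 genes was 11.09 to 11.72 in Cre-/mdx, 12.32 to 12.89 in LysM-MRcko/mdx and 12.27 to 12.41 in MCK-MRcko/mdx. In whole muscle, fewer fibers of a type and less RNA per fiber cannot be told apart.

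The 10 genes did not move as a block. A gene was called when its limma fit over the 9 arrays gave a 2-fold or larger difference together with p under 0.05 before adjustment. By that rule 1 of 10 (Tnni1) was higher in LysM-MRcko/mdx than in Cre-/mdx, beside 0.376% of all 65672 clusters called in either direction and 0.234% called higher. None of the 10 was called in MCK-MRcko/mdx against Cre-/mdx, where 0.321% of all clusters were called and 1 of the 10 had p under 0.05 before adjustment, as did 5.54% of all clusters. Against MCK-MRcko/mdx, 1 of 10 (again Tnni1) was higher in LysM-MRcko/mdx, beside 0.429% of all clusters in either direction and 0.204% higher. The median difference of the 10 was 0.00, 0.10 and 0.01 log2 in these comparisons, and the median of all clusters was 0 in each. No cluster of the array, member or not, had a Benjamini-Hochberg adjusted p under 0.05 in any of the comparisons between genotypes.

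**Figure D1:**
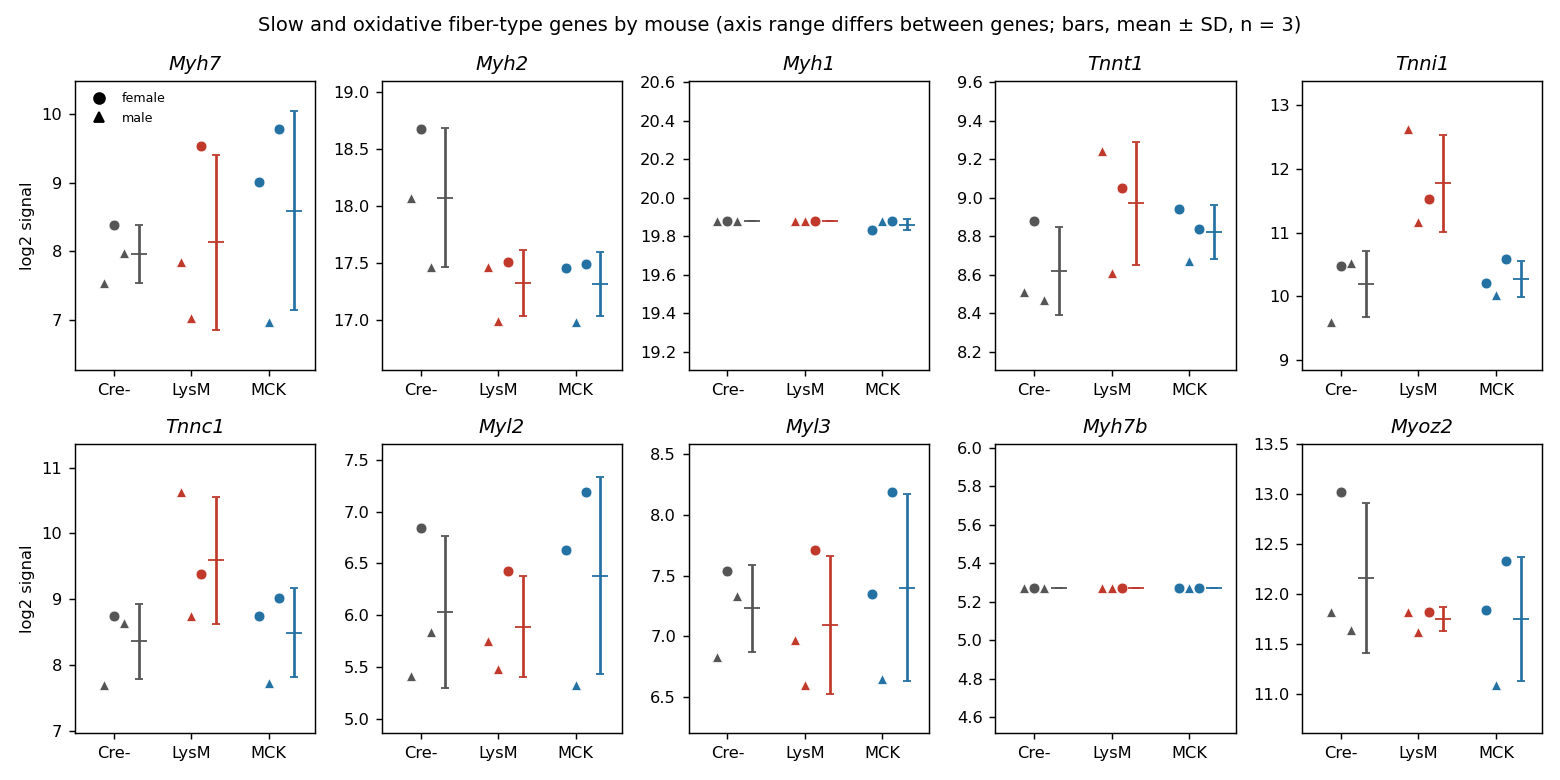
Log2 signal of the 10 genes in each of the 9 mice (circles, female; triangles, male), with the group mean ± SD (n = 3) beside the points and an axis range that differs between panels. Tnni1 lies higher in all LysM-MRcko/mdx mice, the circles lie above the triangles in every group for Myh7, Myl2 and Myl3, and Myh1 and Myh7b are flat.

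The clearest change between genotypes was in Tnni1, which encodes slow skeletal troponin I, the inhibitory subunit of the troponin complex in slow fibers. Its log2 signal was 9.60, 10.47 and 10.53 in Cre-/mdx, 12.62, 11.17 and 11.52 in LysM-MRcko/mdx, and 10.21, 10.03 and 10.58 in MCK-MRcko/mdx. Every LysM-MRcko/mdx mouse lay above every mouse of the other groups, and replicate 1 was the highest of them. In LysM-MRcko/mdx Tnni1 rose 2.97-fold over Cre-/mdx (log2 difference 1.57, SE 0.42, 95% confidence interval 0.58 to 2.56, unadjusted limma p = 0.0073, adjusted p = 0.78, exact permutation p = 0.10). It was 2.82-fold above MCK-MRcko/mdx (1.50, SE 0.42, 0.50 to 2.49, unadjusted limma p = 0.0091, adjusted p = 0.60, exact permutation p = 0.10), whereas MCK-MRcko/mdx and Cre-/mdx differed by 0.07 log2 (−0.92 to 1.07). The permutation p is the smallest that 3 arrays against 3 allow, and 3.29% of all clusters were likewise higher in LysM-MRcko/mdx than in Cre-/mdx without overlap, and 3.72% than in MCK-MRcko/mdx. Left out 1 at a time, no mouse ended the call: the difference from Cre-/mdx then lay between 1.14 and 1.87 log2, the lowest without LysM-MRcko/mdx replicate 1.

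Tnnc1, which encodes troponin C of slow and cardiac muscle, the subunit that binds calcium, had the same order of mice at the top. Its log2 signal was 7.70, 8.74 and 8.64 in Cre-/mdx, 10.63, 8.74 and 9.39 in LysM-MRcko/mdx, and 8.74, 7.72 and 9.02 in MCK-MRcko/mdx. LysM-MRcko/mdx replicates 1 and 3 were the highest of all 9 mice, but replicate 2 lay within the range of both other groups. The difference from Cre-/mdx was 1.23 log2 (SE 0.57, −0.13 to 2.58, unadjusted limma p = 0.069, adjusted p = 0.78, exact permutation p = 0.20) and that from MCK-MRcko/mdx was 1.09 (SE 0.57, −0.26 to 2.45, adjusted p = 0.75), so Tnnc1 did not pass the test. Without LysM-MRcko/mdx replicate 1 the difference from Cre-/mdx was 0.70, and without replicate 2 it was 1.65 and called. Over the 9 arrays, Tnnc1 was the second closest of 30119 genes to Tnni1 after each gene was centred on its own mean, with a root mean square difference of 0.30 log2, against a spread of Tnni1 itself of 0.85. The closest was Irf7 (0.25), a transcription factor of the interferon response, and the next after Tnnc1 was Siglec1 (0.33), a macrophage lectin.

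Tnnt1, slow skeletal troponin T, which ties the troponin complex to tropomyosin, differed little. Its log2 signal was 8.51, 8.88 and 8.47 in Cre-/mdx, 9.24, 8.61 and 9.05 in LysM-MRcko/mdx, and 8.94, 8.67 and 8.84 in MCK-MRcko/mdx, with overlap between all groups. It differed by 0.35 log2 (SE 0.18, −0.09 to 0.78, exact permutation p = 0.20) in LysM-MRcko/mdx and by 0.20 (−0.24 to 0.63) in MCK-MRcko/mdx, both from Cre-/mdx. These intervals end below a 2-fold difference. The genes closest to Tnnt1 over the arrays were Pnp, Slc2a1 and Parp12 (0.08, 0.10 and 0.10 log2 apart, beside a spread of Tnnt1 of 0.24).

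**Figure D2:**
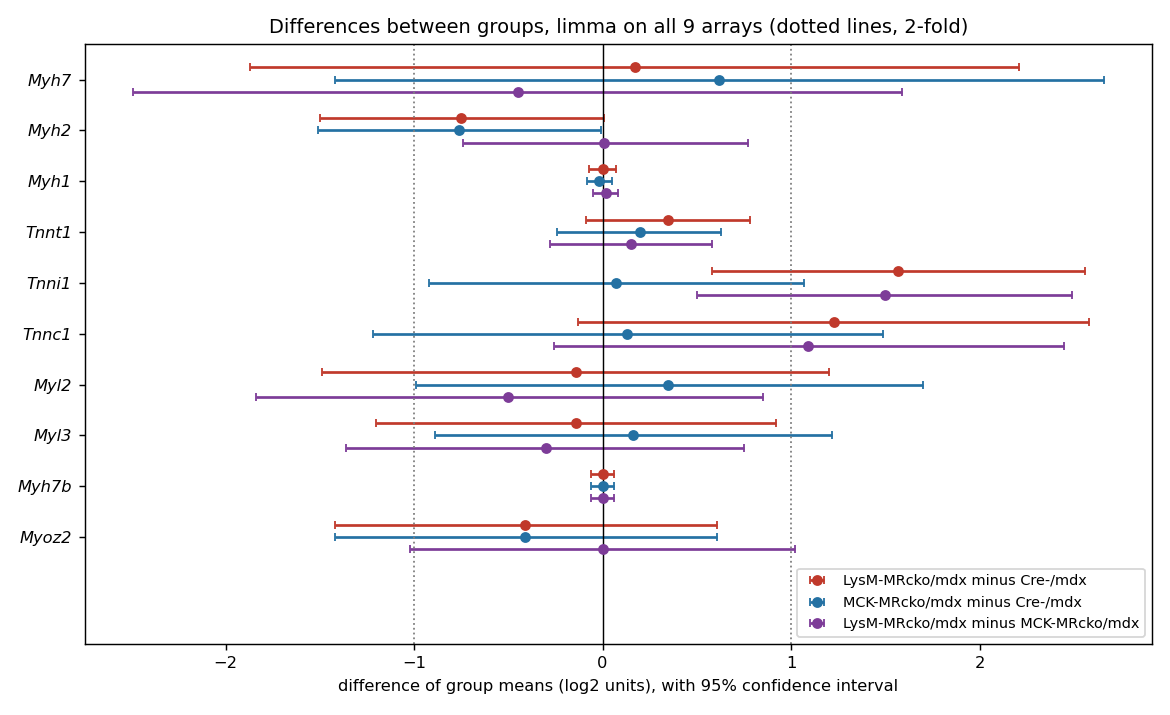
Difference of group means in log2 units (points) with its 95% confidence interval (bars) for the 10 genes, from limma on all 9 arrays, in LysM-MRcko/mdx minus Cre-/mdx (red), MCK-MRcko/mdx minus Cre-/mdx (blue) and LysM-MRcko/mdx minus MCK-MRcko/mdx (purple). For Tnni1 the red and purple points lie past the dotted line of 2-fold at 1.57 and 1.50, and the intervals of Myh7 reach past 2-fold on both sides.

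The promoters of these troponin genes are given because both members share the pattern across mice. Shown are the 250 bases before the most upstream start listed for each in the RefSeq promoter table (build GRCm38.p6), 5′ to 3′ on the strand of the gene, with capitals for the E-box CANNTG, which MyoD and myogenin bind in muscle, and for the MCAT motif CATTCC, which TEAD factors bind, each searched on both strands.
Tnni1, chr1:135799171-135799420, plus strand: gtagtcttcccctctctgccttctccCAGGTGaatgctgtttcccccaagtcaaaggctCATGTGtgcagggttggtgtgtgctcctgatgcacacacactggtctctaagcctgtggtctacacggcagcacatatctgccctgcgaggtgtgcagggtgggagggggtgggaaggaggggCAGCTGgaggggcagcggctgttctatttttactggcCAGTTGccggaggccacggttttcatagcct
Tnnc1, chr14:31208062-31208311, plus strand: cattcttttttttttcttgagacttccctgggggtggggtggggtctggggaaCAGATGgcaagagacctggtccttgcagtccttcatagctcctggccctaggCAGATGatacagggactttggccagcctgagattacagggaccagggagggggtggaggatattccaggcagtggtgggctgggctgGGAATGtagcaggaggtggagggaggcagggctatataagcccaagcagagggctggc
The Tnni1 window lies inside the span that RefSeq gives the whole gene (chr1:135783033-135810989), so it is not the region before its outermost annotated end, and that of Tnnc1 lies directly before the gene. Tnni1 held 4 E-boxes and no MCAT motif in this window, and Tnnc1 held 2 E-boxes and 1 MCAT motif. Of 32851 mouse promoter windows of the same length, 66.2% held an E-box and 12.6% an MCAT motif. Counted per gene over any of its listed starts (1 or 2 each), 8 of the 10 genes held an E-box and 4 (Myh1, Myh7, Myl3 and Tnnc1) held an MCAT motif. The shares of all windows are per single window, so they are not the same measure. Other motifs were searched too and are not reported here. The E-box and MCAT matches describe letters and were not tested for binding.

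Some genes of developing sarcomeres, Myh3, Tnnt2 and Myl6b, were higher in every LysM-MRcko/mdx mouse than in all other mice, as Tnni1 was. Myh8, Myl4 and Actc1 overlapped with Cre-/mdx. Of 6 embryonic and neonatal sarcomere genes, 2 were called higher in LysM-MRcko/mdx than in Cre-/mdx and 0 lower, beside 0.234% of all clusters called higher. The median difference was 0.82 log2, and 0 were called in MCK-MRcko/mdx (median −0.11). Myh3, embryonic myosin heavy chain, had log2 signals of 12.78, 12.04 and 12.73 in Cre-/mdx, 15.84, 13.83 and 13.39 in LysM-MRcko/mdx, and 12.29, 12.56 and 12.37 in MCK-MRcko/mdx. It rose 3.57-fold over Cre-/mdx (1.84 log2, SE 0.60, adjusted p = 0.78, exact permutation p = 0.10), and the call was lost without Cre-/mdx replicate 2 (1.60) and in a fit to the 6 arrays of these groups alone. Tnnt2, the cardiac troponin T that developing skeletal muscle also makes, had 11.33, 11.53 and 11.97 in Cre-/mdx, 14.61, 13.02 and 12.34 in LysM-MRcko/mdx, and 11.28, 11.90 and 11.33 in MCK-MRcko/mdx. It rose 3.28-fold (1.71 log2, SE 0.55, adjusted p = 0.78, exact permutation p = 0.10), and the call was lost without Cre-/mdx replicate 1 (1.57). For both genes LysM-MRcko/mdx replicate 1 was again the highest mouse and no mouse of the group overlapped another group. Of all clusters, 3.29% were likewise higher than in Cre-/mdx without overlap, and 3.72% than in MCK-MRcko/mdx. Without LysM-MRcko/mdx replicate 1 the differences from Cre-/mdx were 1.09 log2 for Myh3 and 1.07 for Tnnt2, still called.

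Myl6b, a light chain of slow and embryonic myosin, had log2 signals of 7.54, 7.94 and 7.97 in Cre-/mdx, 9.44, 8.18 and 8.39 in LysM-MRcko/mdx, and 7.65, 7.73 and 7.48 in MCK-MRcko/mdx. It was 2.07-fold above MCK-MRcko/mdx (1.05 log2, SE 0.32, adjusted p = 0.62, exact permutation p = 0.10) and its difference from Cre-/mdx was 0.85. The call was lost without LysM-MRcko/mdx replicate 1 (0.66) or MCK-MRcko/mdx replicate 3 (0.98). The difference from Cre-/mdx was called too (1.10) once LysM-MRcko/mdx replicate 2 was left out. Myl4, the embryonic and atrial light chain, differed by 0.79 log2 from each of the other groups, which is under 2-fold. Myh8, the neonatal heavy chain, differed by 0.41 log2 from Cre-/mdx. It had the same value, 12.82, on 5 of 9 arrays, all Cre-/mdx mice among them, which limits what its difference and overlap show. Actc1, cardiac actin, stood at 19.07 on 7 of 9 arrays, too near the top of the scale to be read.

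Markers of myoblasts and macrophages were also higher in LysM-MRcko/mdx, and those of macrophages were higher in MCK-MRcko/mdx as well. The mean over 6 muscle stem cell and myoblast markers was 7.83 to 8.39 in Cre-/mdx and 8.51 to 9.51 in LysM-MRcko/mdx, where 1 of them was called higher, and 7.76 to 8.81 in MCK-MRcko/mdx. That one, Mymk, the membrane protein by which myoblasts fuse, was 10.73, 10.94 and 11.84 in Cre-/mdx, 14.83, 13.35 and 12.55 in LysM-MRcko/mdx, and 10.27, 12.30 and 10.90 in MCK-MRcko/mdx. Of the 12 macrophage markers, 8 were called higher in LysM-MRcko/mdx and 4 in MCK-MRcko/mdx, both against Cre-/mdx, with median differences of 1.22 and 0.87 log2. Of all clusters, 0.234% were called higher in LysM-MRcko/mdx, and 0.321% were called in either direction in MCK-MRcko/mdx. The part of these cells in the Tnni1 and Tnnc1 values was not tested.

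**Figure D3:**
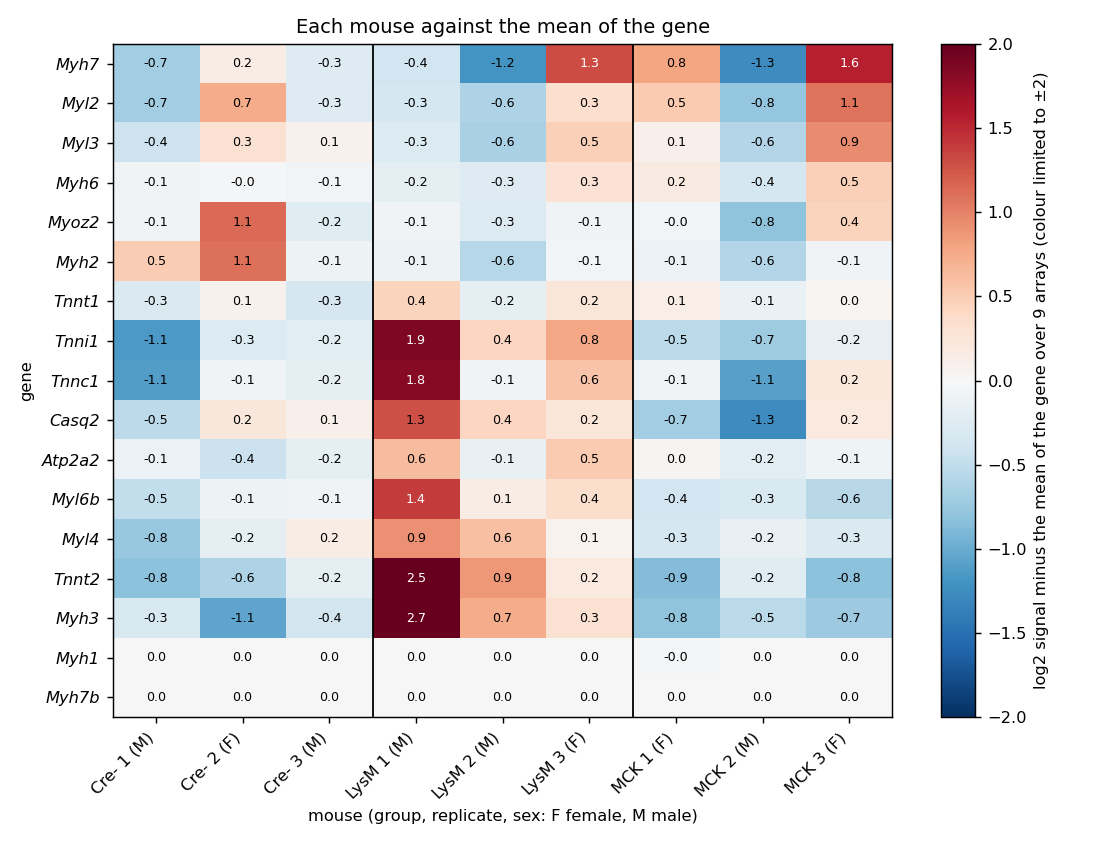
Log2 signal of 17 genes (rows) in each of the 9 mice (columns, by group, replicate and sex), each minus the mean of the gene over the arrays and printed in its cell, with colour limited to 2 log2 units either way. Tnni1, Tnnc1, Casq2, Myl6b, Myl4, Tnnt2 and Myh3 peak in LysM-MRcko/mdx replicate 1, whereas Myh7, Myl2, Myl3 and Myh6 peak in MCK-MRcko/mdx replicate 3, a female.

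Myh7, Myl2 and Myl3 followed another pattern, in which females and males separated and no difference between genotypes passed the test. Myh7 encodes the slow type I myosin heavy chain, Myl2 the slow and ventricular regulatory light chain, and Myl3 the slow and ventricular essential light chain, so that together they make up slow myosin. The log2 signal of Myh7 was 7.54, 8.38 and 7.97 in Cre-/mdx, 7.84, 7.03 and 9.53 in LysM-MRcko/mdx, and 9.01, 6.97 and 9.78 in MCK-MRcko/mdx. The groups overlapped, and MCK-MRcko/mdx held both the lowest and the highest mouse. Myh7 differed from Cre-/mdx by 0.17 log2 in LysM-MRcko/mdx (SE 0.86, −1.87 to 2.21) and by 0.62 in MCK-MRcko/mdx (−1.42 to 2.66), intervals that do not bound the difference to under 2-fold in either direction.

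The comparison by sex was added after these values had been seen, so its p-values describe a pattern that was noticed first. All 4 female mice (8.38, 9.53, 9.01 and 9.78) had more Myh7 signal than all 5 males (7.54, 7.97, 7.84, 7.03 and 6.97), and this held in each group on its own. With group in the limma model, Myh7 was 3.28-fold higher in females (1.72 log2, SE 0.40, 0.73 to 2.70, unadjusted p = 0.0053, adjusted p = 0.87). The female minus male difference was 0.63 log2 in Cre-/mdx, 2.09 in LysM-MRcko/mdx and 2.42 in MCK-MRcko/mdx, each with 1 mouse on one side. The exact permutation p over mice was 0.00794, the smallest that 4 against 5 allow. With sex in the model, the differences from Cre-/mdx were 0.17 in LysM-MRcko/mdx and 0.05 in MCK-MRcko/mdx, and without it 0.17 and 0.62. MCK-MRcko/mdx is the group with 2 females.

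Among Myh7, Myl2 and Myl3, Myl2 separated the sexes with the least scatter. It also had the lowest signal of them, nearest to the array medians of 4.70 to 4.78. Its log2 signal was 5.41, 6.84 and 5.84 in Cre-/mdx, 5.75, 5.48 and 6.43 in LysM-MRcko/mdx, and 6.63, 5.33 and 7.19 in MCK-MRcko/mdx. The females lay between 6.43 and 7.19 and the males between 5.33 and 5.84, a 2.30-fold difference (1.20 log2, SE 0.20, 0.71 to 1.70, unadjusted limma p = 0.00098, adjusted p = 0.87, exact permutation p = 0.00794). Between genotypes it differed from Cre-/mdx by −0.14 log2 (−1.49 to 1.20) in LysM-MRcko/mdx and by 0.35 (−0.99 to 1.70) in MCK-MRcko/mdx. The latter was −0.05 with sex in the model.

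Myl3 was 6.83, 7.54 and 7.33 in Cre-/mdx, 6.97, 6.60 and 7.71 in LysM-MRcko/mdx, and 7.35, 6.65 and 8.19 in MCK-MRcko/mdx. Females again lay above males without overlap (7.35 to 8.19 against 6.60 to 7.33), by 0.84 log2 (SE 0.24, 0.24 to 1.43, unadjusted limma p = 0.014, adjusted p = 0.87, exact permutation p = 0.0159), which is under 2-fold and so was not called. Without Cre-/mdx replicate 2 the difference was 1.02 log2 and called. Between the genotypes Myl3 differed by −0.14, 0.16 and −0.30 log2, each with an interval that spans 0.

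**Figure D4:**
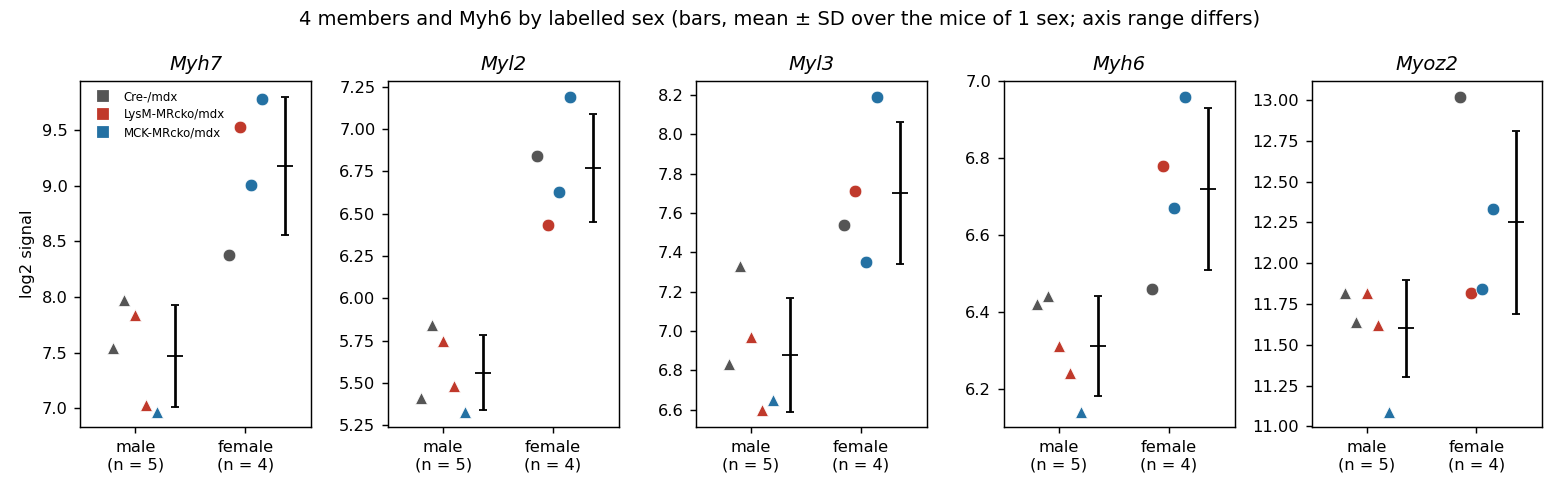
Log2 signal of Myh7, Myl2, Myl3, Myh6 and Myoz2 in male (triangles, n = 5) and female (circles, n = 4) mice, coloured by group, with mean ± SD over the mice of 1 sex. Each female lies above each male for the first 4 genes, as in Myl2, where females start at 6.43 and males end at 5.84, and not for Myoz2.

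Of the 10 genes, 2 (Myh7 and Myl2) were called higher in females and 0 lower, beside 0.175% of all clusters called in either direction and 0.07% called higher in females. The females of 3 of the 10 lay above all males, as did those of 0.244% of all clusters. The median female minus male difference was 0.52 log2 over the 10 and 0 over all clusters. Over all clusters, 6 (0.00914%) had an adjusted p under 0.05 between the sexes, and none of these was among the 10. Myh6, the fast myosin heavy chain of the heart, lies next to Myh7 in the genome and was no member. It was 6.42, 6.46 and 6.44 in Cre-/mdx, 6.31, 6.24 and 6.78 in LysM-MRcko/mdx, and 6.67, 6.14 and 6.96 in MCK-MRcko/mdx, 0.40 log2 higher in females without overlap (unadjusted limma p = 0.020, exact permutation p = 0.00794). Myh6 and Myh7 are close in sequence, and how far their probes share signal was not tested. Of the other 6 heart markers on the list, Nppa lay between 3.77 and 4.10, Myl7 between 4.68 and 4.94, Tnni3 between 5.05 and 5.17 and Ryr2 at 4.07 throughout, whereas Myl4 (6.60 to 8.28) and Actc1 (17.93 to 19.07), both also made in developing skeletal muscle, were higher. The mean over all 7 was 7.06 to 7.35 on the arrays, and 0 were called between the sexes.

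Other cell type markers also differed between the sexes, where 0.175% of all clusters were called in either direction. Myog and Mymk, 2 of the 6 myoblast markers, were called lower in females (list median −0.60 log2, the Mymk call being lost without any of 6 of the 9 arrays), and Adipoq, 1 of 4 adipocyte markers measured, was called higher (list median 0.95). The 4 neutrophil markers had a median of 1.36 with 0 called, and of the 12 macrophage markers 0 were called (median 0.03). On the arrays, the mean over the myoblast list was 7.76 to 8.51 in females and 8.10 to 9.51 in males, and that over the adipocyte list was 7.56 to 9.85 in females and 7.16 to 8.70 in males, both with overlap. The part of these cells in the Myh7, Myl2 and Myl3 values was not tested. Without Cre-/mdx replicate 2, the female-to-male difference was 2.26 log2 for Myh7 and 1.20 for Myl2.

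Promoters of the slow myosin genes are shown because their members varied together, with the same capitals, build and 250-base window before the most upstream start listed.
Myh7, chr14:54994627-54994876, minus strand: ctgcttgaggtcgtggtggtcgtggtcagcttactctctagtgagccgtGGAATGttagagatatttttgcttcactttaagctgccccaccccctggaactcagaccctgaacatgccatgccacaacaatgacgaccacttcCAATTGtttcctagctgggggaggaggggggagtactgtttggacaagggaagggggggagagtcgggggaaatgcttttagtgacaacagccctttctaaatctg
Myl2, chr5:122092474-122092723, plus strand: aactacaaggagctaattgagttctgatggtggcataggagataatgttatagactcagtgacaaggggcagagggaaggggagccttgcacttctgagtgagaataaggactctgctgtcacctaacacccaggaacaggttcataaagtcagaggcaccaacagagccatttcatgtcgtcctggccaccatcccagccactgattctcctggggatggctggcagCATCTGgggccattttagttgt
Myl3, chr9:110763428-110763677, plus strand: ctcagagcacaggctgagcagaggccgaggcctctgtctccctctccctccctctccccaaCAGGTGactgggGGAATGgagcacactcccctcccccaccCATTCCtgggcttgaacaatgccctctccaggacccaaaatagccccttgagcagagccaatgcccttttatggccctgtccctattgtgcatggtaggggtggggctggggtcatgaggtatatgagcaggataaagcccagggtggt
Myh7 held 1 MCAT motif, written here as its reverse complement GGAATG, and 1 E-box, Myl3 held 2 MCAT motifs and 1 E-box, and Myl2 held 1 E-box and no MCAT motif. Tead1 and Tead4, which encode factors of the MCAT motif, differed between the sexes by −0.05 and −0.14 log2 and were not called in any comparison.

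An intron of Myh7 and an intron of Myh7b each hold a microRNA that is made with its host gene and is known to favour slow myosin in muscle. Their mature sequences (RefSeq, GRCm38.p6) are shown because their seeds, bases 2 to 8 in capitals, both begin with UAAGAC.
mmu-miR-208b-3p, within Myh7, chr14:54975710-54975731, minus strand: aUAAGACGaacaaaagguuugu
mmu-miR-499-5p, within Myh7b, chr2:155622893-155622913, plus strand: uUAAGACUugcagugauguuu
Their own clusters carried little signal. Mir208b lay between 3.05 and 3.66 and Mir499 between 3.55 and 4.69, both below the array medians, and Mir208b differed by 0.11 log2 between females and males (−0.15 to 0.36) where Myh7 differed by 1.72.

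Myoz2, which encodes calsarcin-1, a Z-disc protein of slow fibers and heart that binds calcineurin, was 11.82, 13.02 and 11.64 in Cre-/mdx, 11.82, 11.62 and 11.82 in LysM-MRcko/mdx, and 11.84, 11.09 and 12.33 in MCK-MRcko/mdx. Its highest value was in Cre-/mdx replicate 2, and the groups overlapped. It differed from Cre-/mdx by −0.41 log2 (SE 0.43, −1.42 to 0.61) in each knockout. Without Cre-/mdx replicate 2 both differences were 0.02. Between females and males it differed by 0.80 log2 (SE 0.24, unadjusted limma p = 0.015, adjusted p = 0.87, exact permutation p = 0.0238), with overlap and under 2-fold.

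Myh2, the heavy chain of oxidative type IIa fibers, was lower in both knockouts, by less than 2-fold. Its log2 signal was 18.07, 18.67 and 17.46 in Cre-/mdx, 17.46, 16.99 and 17.51 in LysM-MRcko/mdx, and 17.45, 16.98 and 17.49 in MCK-MRcko/mdx. Control replicates 1 and 2 lay above every knockout mouse, and control replicate 3 lay among them. The difference from Cre-/mdx was −0.75 log2 in LysM-MRcko/mdx (SE 0.32, −1.50 to 0.01, unadjusted limma p = 0.051, adjusted p = 0.78, exact permutation p = 0.30) and −0.76 in MCK-MRcko/mdx (−1.51 to −0.01, unadjusted limma p = 0.048, adjusted p = 0.84, exact permutation p = 0.20), and these comparisons share the control mice. Between the knockouts Myh2 differed by 0.01 log2 (−0.74 to 0.77).

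The size of the Myh2 difference turned on the control mice. Without Cre-/mdx replicate 2 it was −0.44 in LysM-MRcko/mdx and −0.46 in MCK-MRcko/mdx, and without Cre-/mdx replicate 3 it was −1.05 and −1.06 and called in both. With sex in the model it was −0.75 and −0.95, still under 2-fold. Myh2 came within 2 log2 units of the array maximum in 2 mice, so a difference at its upper end may be compressed. The genes closest to Myh2 over the 9 arrays were Ostn, which encodes the muscle peptide osteocrin or musclin (0.10 log2 apart), Csrp3, muscle LIM protein of the Z-disc (0.16), and 2310075C17Rik (0.19), against a spread of Myh2 of 0.49.

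For Myh1 and Myh7b the arrays hold no information on the groups. Myh1, the type IIx heavy chain, stood at 19.88 in 8 mice and 19.83 in MCK-MRcko/mdx replicate 1, within 0.05 to 0.10 log2 of the maximum. It was the only 1 of the 10 genes within 1 log2 unit of the maximum on every array, as were 241 clusters in all, whose median range over the arrays was 0 against 0.58 for all clusters. Myh7b, an ancient slow-type myosin heavy chain, had 5.27 on all 9 arrays, as 1282 clusters (1.95%) had a single value throughout. With values that hardly vary between arrays, differences of 0 log2 (Myh7b) and of −0.02 to 0.02 (Myh1) were not read as equal RNA levels, and why the values repeat was not tested. The heavy chains Myh1, Myh2 and Myh4 lie in 1 cluster of genes of similar sequence, and Myh4, the type IIb heavy chain, stood at 19.93 on every array.

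Lists around the 10 genes were read by the same rule. Of 14 other slow-fiber sarcomere and calcium genes, 0 were called in either knockout against Cre-/mdx (medians −0.04 in LysM-MRcko/mdx and −0.27 in MCK-MRcko/mdx), although 12 of the 14 had a negative difference in MCK-MRcko/mdx. Against MCK-MRcko/mdx, 2 of the 14 were called higher in LysM-MRcko/mdx, Myl6b and Casq2, beside 0.204% of all clusters. Casq2, the calcium store protein of slow fibers and heart, was 12.58, 13.33 and 13.20 in Cre-/mdx, 14.39, 13.54 and 13.34 in LysM-MRcko/mdx, and 12.41, 11.85 and 13.30 in MCK-MRcko/mdx, a difference of 1.24 log2 between the knockouts (SE 0.44, adjusted p = 0.67, exact permutation p = 0.10). Without LysM-MRcko/mdx replicate 1, MCK-MRcko/mdx replicate 1 or MCK-MRcko/mdx replicate 2 the Casq2 difference was 0.92, 1.18 or 0.90 and not called. Atp2a2, the slow calcium pump SERCA2, differed from Cre-/mdx by 0.59 log2 in LysM-MRcko/mdx (0.10 to 1.07) and by 0.16 in MCK-MRcko/mdx. Actn2, alpha-actinin of the Z-disc, was lower by 0.75 log2 units in MCK-MRcko/mdx, at 16.31, 16.53 and 16.32 against 17.13, 17.38 and 16.91, which is under 2-fold (log2 difference −0.75, SE 0.12, adjusted p = 0.78, exact permutation p = 0.10) but was called after quantile normalization.

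None of 15 fast-fiber sarcomere and calcium genes was called in any comparison, and 6 of the 15 stood at the maximum of 19.93 on all arrays. A repeated value also held for Actn3 (19.93 on 8 arrays), Casq1 (19.77 on 8), Pvalb (19.35 on 7), Tnni2 (15.88 on 6) and Tpm1 (12.51 on all 9). The list as a whole was therefore not read as unchanged. Among the genes that varied more, Myoz1, the calsarcin of fast fibers, was 14.74, 14.79 and 14.97 in Cre-/mdx, 14.32, 14.67 and 14.68 in LysM-MRcko/mdx, and 13.95, 14.61 and 14.12 in MCK-MRcko/mdx. Myoz1 differed from the controls by under 2-fold and was not called (−0.28 log2 in LysM-MRcko/mdx and −0.61 in MCK-MRcko/mdx, SE 0.18, adjusted p = 0.82 and 0.84). The exact permutation p was 0.10 in each, the smallest that 3 arrays against 3 allow. Mybpc2, fast myosin-binding protein C, differed from Cre-/mdx by −0.55 log2 in LysM-MRcko/mdx (SE 0.28, adjusted p = 0.79), with overlap, and by −0.17 in MCK-MRcko/mdx. Of 10 glycolytic enzymes measured, 0 were called. Aldoa had 13.14 on all 9 arrays, Eno3 19.42 on 7 and Ldha 13.15 on 6, and Pygm lay near the top of the scale (19.04 to 19.62). These 0 calls were therefore not read as equal RNA levels. The mean over 15 oxidative fuel genes was 13.43, 14.56 and 13.27 in Cre-/mdx, 13.11, 13.42 and 13.26 in LysM-MRcko/mdx, and 13.09, 12.97 and 13.09 in MCK-MRcko/mdx. Control replicate 2 was the highest mouse. The LysM-MRcko/mdx mice overlapped the other controls, and the MCK-MRcko/mdx mice lay below them. With all controls, 14 of the 15 had a negative difference in each knockout (medians −0.53 in LysM-MRcko/mdx and −0.88 in MCK-MRcko/mdx), but 0 and 1 were called. The 1 was Cs, citrate synthase, at 16.36, 17.10 and 15.93 in Cre-/mdx and 15.00, 15.93 and 15.19 in MCK-MRcko/mdx, which fell 2.13-fold (−1.09 log2, SE 0.35, adjusted p = 0.84, exact permutation p = 0.20) with a tie between the groups at 15.93. That call was lost when control replicate 2 (−0.77) or replicate 1 (−0.90) or 3 (−1.0) of MCK-MRcko/mdx was left out. The count itself moved with the arrays used: in MCK-MRcko/mdx it was 5 without control replicate 1 or control replicate 3 and with sex in the model, 4 after quantile normalization, 3 with array weights or without MCK-MRcko/mdx replicate 2, 2 without its replicate 3, and 0 without control replicate 2 or MCK-MRcko/mdx replicate 1. In LysM-MRcko/mdx it was 1 without control replicate 1 or 3. Endothelial markers were lower beside the fuel genes: all 8 had a negative difference in each knockout (medians −0.50 and −0.81 log2), 0 were called in LysM-MRcko/mdx and 2 (Cdh5 and Adgrf5) in MCK-MRcko/mdx, and their mean was 10.94 to 11.15 in Cre-/mdx, 10.44 to 10.64 in LysM-MRcko/mdx and 9.83 to 10.68 in MCK-MRcko/mdx. Of all clusters, 0.376% were called in LysM-MRcko/mdx and 0.321% in MCK-MRcko/mdx, in either direction. The part of endothelial cells in the fuel gene values was not tested.

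Among 28 fiber-type regulators measured, 1 was called in each knockout, beside 0.376% of all clusters in LysM-MRcko/mdx and 0.321% in MCK-MRcko/mdx. With 1 array left out the count ran from 0 to 3 in LysM-MRcko/mdx (3 without control replicate 3, and 2 without control replicate 2 or without LysM-MRcko/mdx replicate 2) and from 0 to 2 in MCK-MRcko/mdx (2 without control replicate 3). Ppargc1a, the coactivator PGC-1 alpha that drives mitochondrial and slow-fiber genes, was 12.01, 11.12 and 10.13 in Cre-/mdx, 9.56, 10.28 and 9.76 in LysM-MRcko/mdx, and 10.10, 10.13 and 9.61 in MCK-MRcko/mdx. Control replicates 1 and 2 were the highest mice and control replicate 3 lay among the knockouts, as for Myh2. Ppargc1a fell 2.33-fold in LysM-MRcko/mdx (−1.22 log2, SE 0.46, adjusted p = 0.78, exact permutation p = 0.20) and 2.20-fold in MCK-MRcko/mdx (−1.14, SE 0.46, adjusted p = 0.84, exact permutation p = 0.20), with the same controls in both. Without Cre-/mdx replicate 1 the differences were −0.76 and −0.68 and not called. The call in LysM-MRcko/mdx was also lost without control replicate 2 (−1.20) or without replicate 1 (−1.07) or 3 (−1.17) of its own group, and that in MCK-MRcko/mdx was lost without any of 8 of the 9 arrays (all but control replicate 3) and with sex in the model (−1.10). Nr3c2, which encodes MR, differed from Cre-/mdx by −0.11 log2 in LysM-MRcko/mdx and −0.22 in MCK-MRcko/mdx, and a value over the whole gene in whole muscle checks little about a deletion in 1 cell type.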

How the data were processed

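Quadriceps RNA of 9 mice was hybridized to 1 Affymetrix Clariom D array per mouse. The deposited values are log2 signals of 65672 transcript clusters that the authors background-corrected, normalized and summarised with gene-level SST-RMA in Expression Console. The build used to design the clusters is not given in the sources used here, and coordinates printed are those of RefSeq on GRCm38.p6. Array number limits the precision. Gene names came from the array's probe table, which gives 1 symbol for 30450 clusters, several for 2151 and none for 33071. All columns of values were used. Groups follow the labels.

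In limma 3.58.1 (R 4.3.3), 1 mean per group was fitted to all clusters on all 9 arrays with eBayes. Adjusted p-values are Benjamini-Hochberg values over the 65672 clusters. Exact permutation tests are two-sided and use all 20 splits of 3 against 3 arrays or all 126 of 4 against 5. The replicates are separate mice. The code was tested on simulated data with 200 changed clusters. Named genes are the 10 members, Nr3c2, Ppargc1a, up to 4 genes a list and comparison that were called or differed most, and the 3 genes closest to Tnni1, Tnnt1, Myh7 and Myh2, where those of Myh7 were Tsix (0.46 log2 apart), Myl2 (0.49) and Ccn3 (0.49). Genes outside this rule, Myh6, the microRNAs, Tead1 and Tead4 among them, were chosen after values were seen. The members and lists were chosen with earlier results of these data known. Some genes of the lists are not reported here, and counts are over the genes measured.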

Additional observations from a re-analysis of the deposited data

Results flagged for a closer look

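Among 151 genes of the members, lists and cell type markers, 9 (5.96%, beside 0.429% of all clusters) had a difference from Cre-/mdx that itself differed between the knockouts by a test of LysM-MRcko/mdx against MCK-MRcko/mdx in limma, at 2-fold or more and an unadjusted p under 0.05, 8 higher and 1 lower in LysM-MRcko/mdx, each in 3 of 3 mice without overlap. The members and lists were chosen with earlier results of these data known, and all clusters include many of low signal (array medians 4.70 to 4.78). Setting these shares side by side is therefore no test of enrichment. For 5 sarcomere and calcium genes the differences were 1.95 log2 (SE 0.60) for Myh3, 1.82 (SE 0.55) for Tnnt2, 1.50 (SE 0.42) for Tnni1, 1.24 (SE 0.44) for Casq2 and 1.05 (SE 0.32) for Myl6b. Genes of the marker lists of other cells were called as well: Mymk of myoblasts (2.42, SE 0.73), Acta2 of smooth muscle (1.74, SE 0.33), Postn of fibroblasts (1.29, SE 0.36) and, lower, Lyz2 of macrophages (−1.05, SE 0.32). Postn and Lyz2 do not stand for their lists. Lyz2 differed from Cre-/mdx by −0.10 log2 in LysM-MRcko/mdx and by 0.94 in MCK-MRcko/mdx. It encodes lysozyme M, under whose control LysM-MRcko/mdx carries Cre, and the part of the Cre copy in its signal was not tested. Of 12 macrophage markers, 9 were higher in LysM-MRcko/mdx than in MCK-MRcko/mdx and 3 lower (median 0.41 log2). Of 6 fibroblast markers, 2 were higher and 4 lower (median −0.09). All 6 myoblast markers (median 0.44) and all 5 smooth muscle markers (median 0.25) were higher, but only Mymk and Acta2 of them were called. The adjusted p-values of the 9 called genes lay between 0.44 and 0.67, so none of them passes a correction over all clusters. LysM-MRcko/mdx replicate 1 was the highest mouse for each of the 5 sarcomere and calcium genes, and without it the differences of Casq2 (0.92) and Myl6b (0.66) were no longer called, whereas those of Tnni1 (1.07), Myh3 (1.20) and Tnnt2 (1.18) were. Mymk, Acta2 and Postn stayed called with any 1 array left out, and Lyz2 was not called without LysM-MRcko/mdx replicate 2 (−0.90), or without replicate 1 or 3 of MCK-MRcko/mdx.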

How the results depend on the processing

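Over 30 pairs of a member and a genotype comparison, 630 values were computed under alternatives, of which 622 stayed on the same side of the call, 2 lost the call and 6 gained it. Of the 622, 26 had the opposite sign, all of them in differences of at most 0.45 log2 that were never called, and 109 set a value of 0 against another. Called values reversed in 0 cases. Alternatives were other variance models, arrays, normalizations, filters, array weights, sex as a covariate, the clusters that stand for a gene, and each array left out. Part of the 622 was fixed beforehand. Myh1 and Myh7b, whose values hardly vary, stayed uncalled under every alternative. Each member had 1 single-symbol cluster, so the choice of clusters could not alter its difference. With an adjusted p under 0.05 as the rule, 0 members were called when LysM-MRcko/mdx was set against Cre-/mdx, 0 when it was set against MCK-MRcko/mdx and 0 between females and males, since no member has such a p. With quantile normalization 2 members were called in LysM-MRcko/mdx (Tnnc1 joining at 1.28 log2) and 1 in MCK-MRcko/mdx (Myh2 at −1.01), both against Cre-/mdx, and the cause was not tested. With 1 array left out, the counts ran from 1 to 2 for LysM-MRcko/mdx against Cre-/mdx (2 without control replicate 3 or without replicate 2 of LysM-MRcko/mdx), from 0 to 1 for MCK-MRcko/mdx (1 without Cre-/mdx replicate 3), from 1 to 2 for LysM-MRcko/mdx against MCK-MRcko/mdx (2 without LysM-MRcko/mdx replicate 2) and from 2 to 3 between the sexes (3 without control replicate 2 or without replicate 3 of LysM-MRcko/mdx, where Myl3 or Myoz2 joined). Replicate numbers are shared between the groups but do not pair mice: only 3 of 9 same-numbered pairs correlated above 0.1 and 0 arrays correlated best with their own number. With that number as a block the counts of called members were 1, 0, 1 and 2, as without it, and of the other genes named Casq2 lost its call between the knockouts (1.24 log2). In the lists, 1 array left out moved the count of other slow-fiber genes to 2 in both knockouts against Cre-/mdx (without control replicate 3) and to between 0 (without LysM-MRcko/mdx replicate 1) and 3 (without its replicate 2) between the knockouts, and that of embryonic and neonatal genes in LysM-MRcko/mdx to between 1 (without control replicate 1 or 2) and 3 (without LysM-MRcko/mdx replicate 2 or 3). Myh1 was the only member near the top of the scale at a limit of 0.5, 1 or 2 log2 units on all arrays. Signal too near the maximum, or a single value on all arrays, limits Myh1 and Myh7b whatever the processing.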
